A study of Mus musculus with 90 samples.

Results

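Complex I is the first enzyme of the mitochondrial respiratory chain, and the RNA of its nuclear-encoded parts is described here in 4 tissues of cold-exposed mice. The genes were all those whose name starts with Nduf. They numbered 45 of 32697 gene entries: 36 subunits (7 core and 29 accessory), the pair Ndufa4 and Ndufa4l2, and 7 assembly factors, Ndufaf1 to Ndufaf7. All 45 had a mean of at least 1 CPM (counts per 1000000) in each tissue. The lowest means were those of Ndufa4l2, at 6.71 CPM in BAT, 5.03 CPM in iWAT and 2.16 CPM in hypothalamus, and of Ndufaf2, at 5.32 CPM in muscle, so no gene lay near the limit. The mitochondrially encoded core subunits and Ndufaf8 were not analysed here.

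RNA was measured by poly(A) sequencing of brown adipose tissue (BAT, the heat-producing fat depot), inguinal white adipose tissue (iWAT, a subcutaneous depot that can gain brown-like features), muscle and hypothalamus. The male mice lacked uncoupling protein 1 (UCP1 KO), both UCP1 and fibroblast growth factor 21 (dKO), or fibroblast growth factor 21 (FGF21 KO), or were wild type (WT). The knockouts were homozygous, and the design text writes FGF12 in place of FGF21 once for the dKO, whereas its title and labels have FGF21. All 4 genotypes grew up at 30 °C. When 10 to 12 weeks old they spent 12 days at 18 °C and then 3 weeks at 5 °C, and food was taken away for the last 2 to 3 hours. There was thus no group left in the warm. Libraries numbered 6 for UCP1 KO in each tissue, 6 for dKO (5 in hypothalamus), 5 for FGF21 KO and 6 for WT (5 in BAT). The knockouts affect the whole body, and the labels tie no library to a mouse, so p-values measure the spread between these samples, which may be partly technical. Total counts ran from 18.07 to 69.89 M per library (1 M is 1000000 counts).

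Ucp1 in BAT was lower in each library labelled UCP1 KO or dKO than in the others. It had 882 to 1390 CPM in UCP1 KO, 1150 to 1480 CPM in dKO, 10470 to 11592 CPM in FGF21 KO and 6441 to 10095 CPM in WT. Reads were therefore still counted on Ucp1 in the knockouts, and in iWAT Ucp1 had 1033 to 1756 CPM in UCP1 KO and 103 to 1187 CPM in WT. Fgf21 in BAT had 10.1 to 38.9 CPM in UCP1 KO, at most 0.0261 CPM in dKO, at most 0.400 CPM in FGF21 KO and 0.171 to 1.72 CPM in WT, so the FGF21 KO and WT libraries overlapped there and Fgf21 in BAT does not check that label. In iWAT it had 7.30 to 33.7 CPM in UCP1 KO, at most 0.0932 CPM in dKO, at most 0.0222 CPM in FGF21 KO and 0.171 to 0.531 CPM in WT, without overlap between the libraries labelled as lacking FGF21 and the others.

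Complex I takes electrons from NADH, passes them through a flavin and a chain of iron-sulfur clusters to ubiquinone, and pumps protons across the inner mitochondrial membrane. Its core subunits carry out catalysis, its accessory subunits surround and stabilise them, and the assembly factors help to build the enzyme from modules but are not part of the finished complex. Brown fat has many mitochondria, whose respiration UCP1 turns into heat. NDUFA4 was named for complex I and is now placed with complex IV, and Ndufa4l2 is its paralog that is induced in hypoxia, so this pair was kept out of the subunit counts.

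Promoters of 3 of the genes are shown for the contrast between them. Ndufaf4 rose most of all 45 genes in iWAT of UCP1 KO, Ndufaf3 did not pass the test there, and Ndufs5 held matches to a pair of motifs. Each is the 250 bases before the gene's RefSeq start (build GRCm38.p6), in the 5′ to 3′ direction of the gene, and capitals mark the motif matches. Ndufaf4 lies on the plus strand and its promoter at chr4:24897833-24898082, Ndufaf3 on the minus strand at chr9:108567437-108567686, and Ndufs5 on the minus strand at chr4:123718187-123718436.
Ndufaf4 promoter: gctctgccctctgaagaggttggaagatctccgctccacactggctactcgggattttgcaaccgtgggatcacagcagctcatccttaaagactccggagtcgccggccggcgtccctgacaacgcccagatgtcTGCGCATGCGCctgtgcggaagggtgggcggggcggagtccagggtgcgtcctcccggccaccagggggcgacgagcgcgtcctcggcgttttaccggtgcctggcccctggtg
Ndufaf3 promoter: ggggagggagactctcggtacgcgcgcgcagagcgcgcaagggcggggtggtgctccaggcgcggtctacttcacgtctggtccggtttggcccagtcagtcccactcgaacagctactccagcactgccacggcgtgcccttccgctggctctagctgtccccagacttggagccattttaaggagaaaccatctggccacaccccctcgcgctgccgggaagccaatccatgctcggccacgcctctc
Ndufs5 promoter: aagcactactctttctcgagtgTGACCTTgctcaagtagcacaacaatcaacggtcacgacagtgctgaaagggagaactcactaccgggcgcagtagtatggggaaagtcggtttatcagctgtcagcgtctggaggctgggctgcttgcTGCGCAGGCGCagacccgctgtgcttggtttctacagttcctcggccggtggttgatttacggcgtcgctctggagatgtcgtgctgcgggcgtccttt
The capitals in Ndufaf4 are a match to the NRF1 motif (TGCGCA, then any base, then GCGC), and Ndufs5 has a match to the same motif and 1 to the ERR motif AAGGTCA on the opposite strand. Ndufaf3 has no match to these motifs, nor to the GABP motif CCGGAAG or the YY1 motif AAGATGG. The motifs overlap in none of the sequences shown. NRF1, ERRs, GABP and YY1 are transcription factors known to act on nuclear-encoded respiratory genes.

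RefSeq promoters were matched for 39 of the 45 genes, both strands were searched, and genes with more than 1 promoter were counted once. The NRF1 motif was in a promoter of 4 of the 39 genes (10.3%), against 2.23% of all 27025 genes with promoters of the same length. The ERR motif was in 3 (7.69%, against 4.7% of all), the GABP motif in 4 (10.3%, against 7.83%) and the YY1 motif in 0 of 39 (against 5.18%). These are letter matches in a fixed window and say nothing of whether a factor binds. The promoters shown above were chosen by their gene's change or matches. Ndufab1, Ndufv2 and Ndufa10 also rose in iWAT of UCP1 KO and have no match to any of these motifs.

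In BAT the subunits of complex I were lower in UCP1 KO than in WT relative to other genes, and the assembly factors split. Scaled with TMM factors, which set the bulk of genes equal between libraries, 32 of the 45 genes fell and 3 rose (edgeR's quasi-likelihood test, Benjamini-Hochberg adjusted p under 0.05 over all genes tested), whereas scaled to total counts 6 fell and 22 rose. Of all genes tested in this comparison 60.1% were called with TMM scaling, 29.9% as lower and 30.2% as higher, and 70.5% with total counts. The count of 32 lower genes is thus above the background share and that of 3 higher genes below it. The median log2 fold change of the 45 genes was -0.31 with TMM scaling, where the median of all genes was -0.02, and 0.12 with total counts, where the median of all genes was 0.41. Under both scalings the 45 genes lay 0.29 below the median of all genes, and 39 of them lay under it. Such distances hardly depend on the scaling, which shifts all genes by about the same amount, so agreement between scalings is no check of them.

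The make-up of the BAT libraries differed between the genotypes. The 10 most abundant genes took on average 17.9% of the counts in UCP1 KO and 18.8% in dKO, against 29.8% in FGF21 KO and 29.0% in WT. TMM factors ran from 1.07 to 1.28 in UCP1 KO and 1.07 to 1.20 in dKO, against 0.832 to 0.873 in FGF21 KO and 0.815 to 0.894 in WT. As a share of all raw counts, the 45 genes took 1.17 ± 0.0279% in UCP1 KO, 1.21 ± 0.0646% in dKO, 1.15 ± 0.0287% in FGF21 KO and 1.15 ± 0.0504% in WT (SD, n = 6, 6, 5 and 5), which differ by about the spread between libraries. On the TMM scale their summed level was 10099 ± 693 CPM in UCP1 KO, 10883 ± 670 CPM in dKO, 13387 ± 429 CPM in FGF21 KO and 13443 ± 701 CPM in WT. On that scale the UCP1 KO and dKO libraries all lay below the WT libraries, and the share of raw counts showed no such gap. All levels and changes from here on are on the TMM scale unless total counts are named. In a bulk sample fewer cells of a type and less RNA per cell cannot be told apart.

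**Figure D1:**
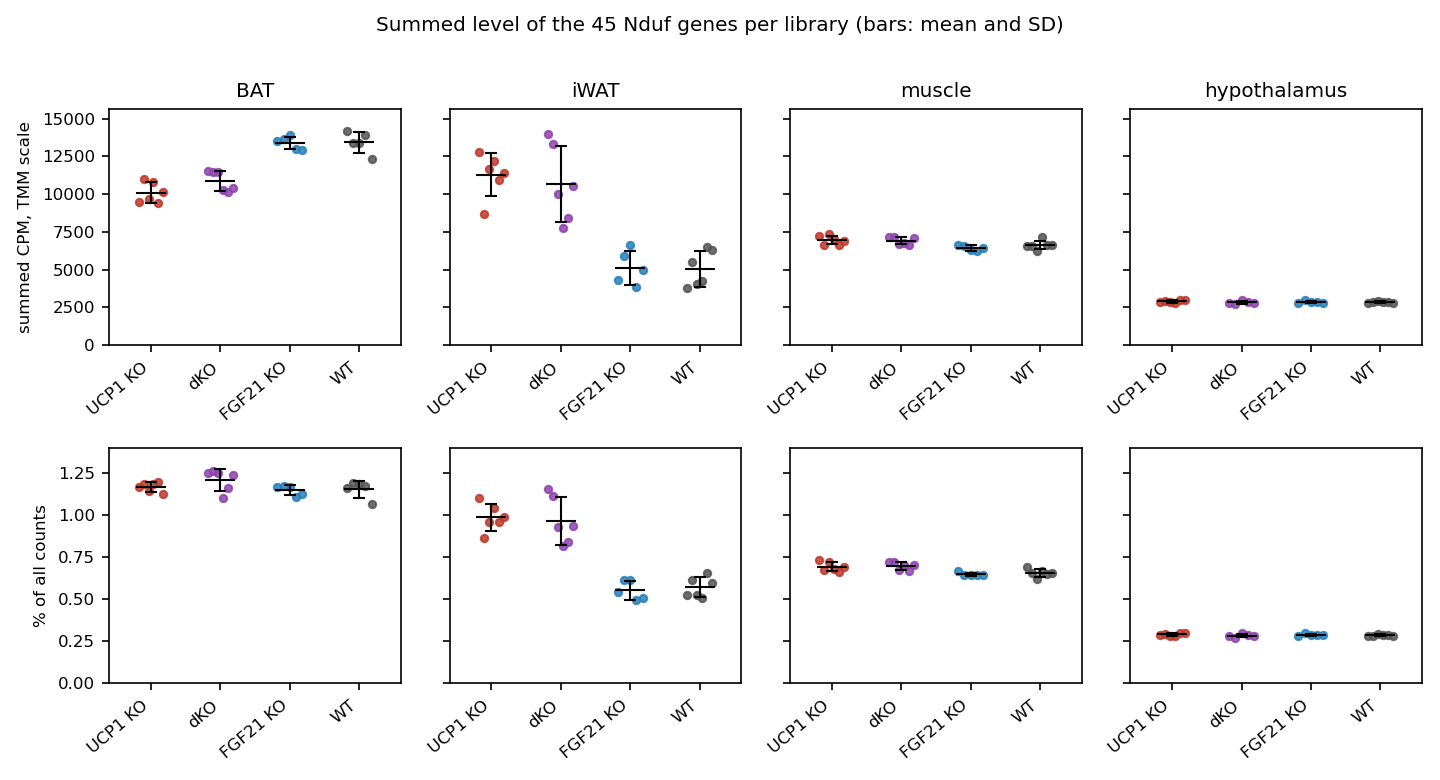
Summed level of the 45 Nduf genes in each library (CPM, TMM scale, linear axis from 0) by tissue and genotype, with group means and SD. In BAT the UCP1 KO and dKO libraries lie below the WT libraries on this scale (10099 and 10883 against 13443 CPM on average; the raw-count shares of 1.17% and 1.21% against 1.15% show no such gap), and in iWAT they lie above them (11278 and 10671 against 5078 CPM).

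Of the 7 core subunits in BAT, 6 fell in UCP1 KO with TMM scaling (median log2 fold change -0.39), whereas with total counts 3 fell and 3 rose. Ndufv1, which binds the flavin that accepts electrons from NADH, had 556, 603 and 663 CPM in UCP1 KO and 569, 638 and 696 CPM in dKO (lowest, median and highest). In FGF21 KO it had 959, 976, 1020, 889 and 864 CPM, and in WT 981, 1094, 1066, 1039 and 927 CPM. No UCP1 KO or dKO library reached the lowest WT library, and the FGF21 KO libraries overlapped with WT. Its log2 fold change in UCP1 KO was -0.76 (SE 0.06, edgeR adjusted p = 1.04e-09), and with total counts it was still lower, at -0.32. Ndufs1, the largest core subunit and a carrier of iron-sulfur clusters, changed by -0.71, and by -0.28 with total counts. Ndufs7, an iron-sulfur subunit next to the ubiquinone site, was the core subunit that did not pass the test, with a log2 fold change of -0.10.

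Of the 29 accessory subunits 21 fell in UCP1 KO and 0 rose with TMM scaling (median -0.29), whereas with total counts 2 fell and 15 rose. Ndufa1, a small subunit of the membrane arm, had 107, 129 and 165 CPM in UCP1 KO and 117, 145 and 149 CPM in dKO. It had 219, 242, 247, 222 and 223 CPM in FGF21 KO and 234, 236, 247, 245 and 207 CPM in WT. The UCP1 KO and dKO libraries all lay below every FGF21 KO and WT library. With a log2 fold change of -0.82 (SE 0.09, edgeR adjusted p = 1.11e-07), or 0.565-fold, Ndufa1 showed the largest change of the 45 genes in this comparison, and it was lower with total counts too (-0.40). Ndufa10, which resembles nucleoside kinases, was the next among the accessory subunits with -0.65 (SE 0.06, edgeR adjusted p = 3.71e-09), and -0.22 with total counts. At the other end lay Ndufa11, a membrane arm subunit, whose log2 fold change of 0.07 did not pass the test. The accessory subunits Ndufa5, Ndufab1, Ndufb2, Ndufb4, Ndufb7, Ndufb10 and Ndufc2 did not pass it either.

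The lower subunits came from each arm of the enzyme, on the TMM scale. With TMM scaling 9 of 9 subunits of the N module, where NADH is oxidised, fell in UCP1 KO BAT, as did 4 of 6 of the Q module, which reduces ubiquinone, 7 of 8 of the proximal membrane arm and 6 of 10 of the distal membrane arm. The median log2 fold changes were -0.29, -0.29, -0.36 and -0.27 in that order. With total counts 0 to 2 subunits of each module fell and 2 to 5 rose, and the medians lay 0.26 to 0.35 below the median of all genes. Ndufa4 and Ndufa4l2 both fell, with log2 fold changes of -0.59 and -0.53 (edgeR adjusted p = 1.33e-07 and 0.000274). Only the change of Ndufa4 still passed the test as lower with total counts (-0.16). An exon of Shmt2 on the opposite strand overlaps exons of Ndufa4l2, so the values of Ndufa4l2 are uncertain in each tissue.

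**Figure D2:**
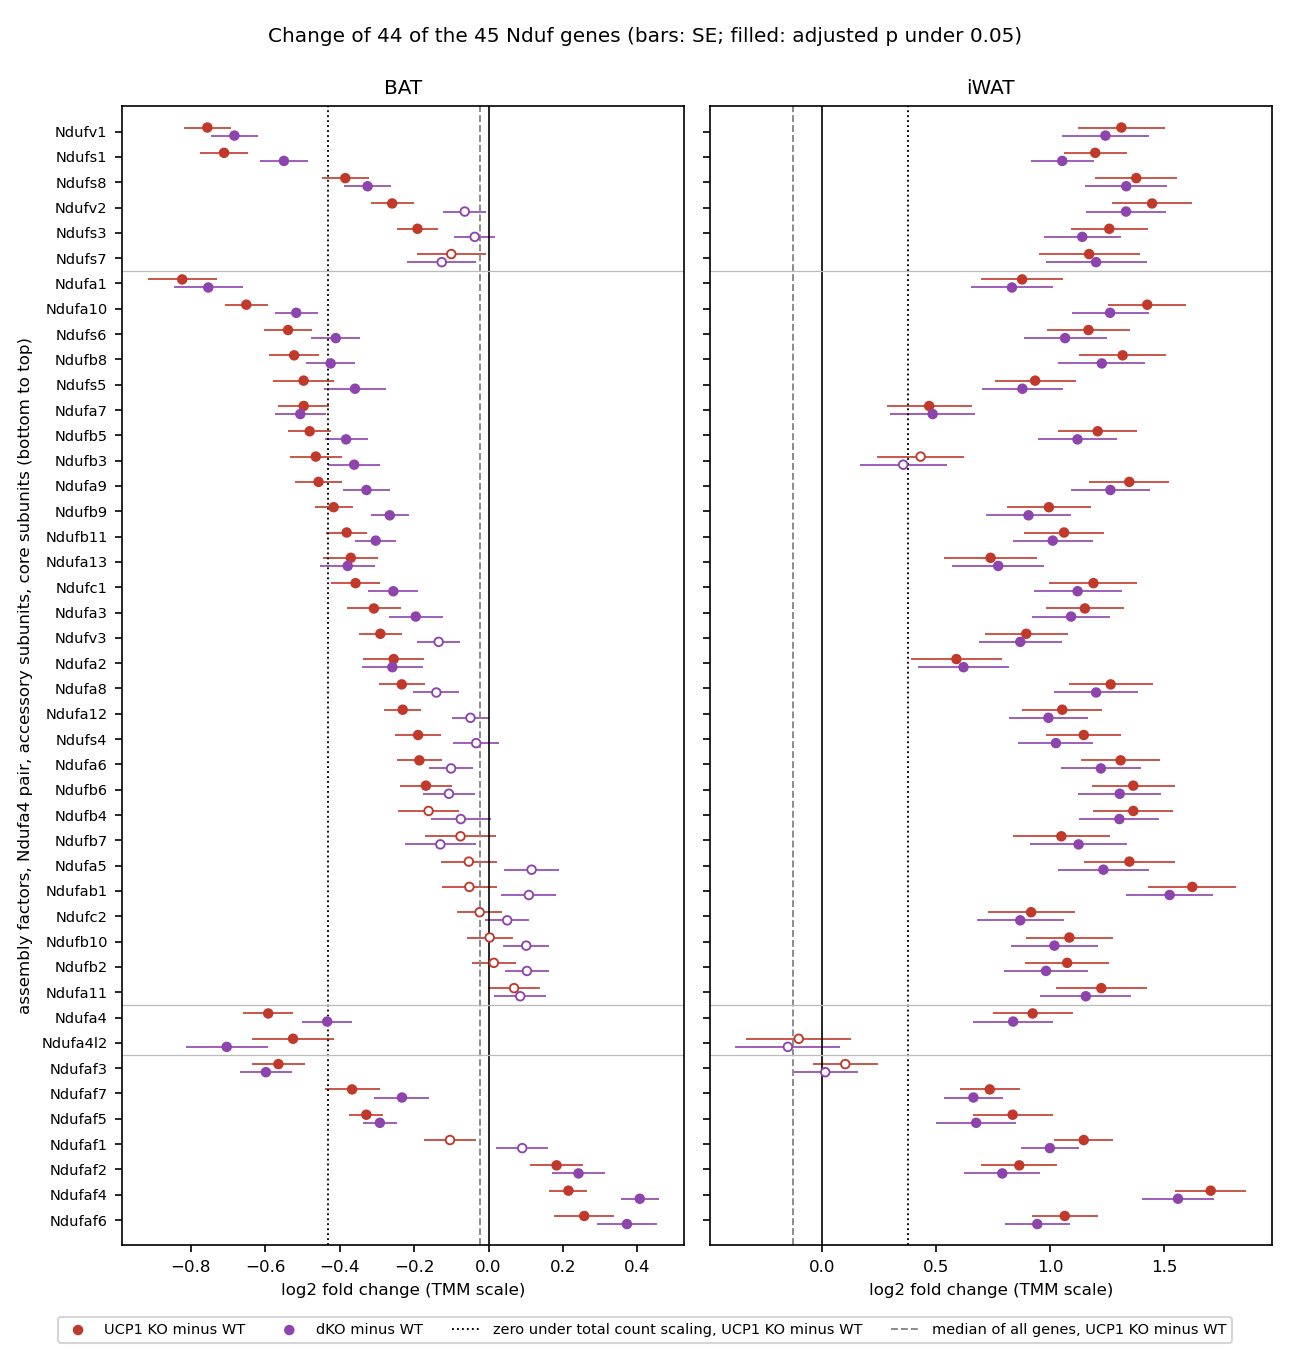
Log2 fold change of 44 of the 45 Nduf genes in BAT and iWAT (TMM scale, horizontal axis; bars are SE; filled points have an adjusted p under 0.05). In BAT most subunits lie left of 0 and Ndufaf2, Ndufaf4 and Ndufaf6 right of it, but on the total count scale, whose 0 is the dotted line, 22 genes were called higher and 6 lower in UCP1 KO; in iWAT nearly all lie right of both lines.

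The 7 assembly factors in BAT did not move together. In UCP1 KO 3 rose and 3 fell with TMM scaling, whereas with total counts 4 rose and 0 fell. Ndufaf4, which works with Ndufaf3 on early intermediates of the Q module in human cells, had 101, 104 and 112 CPM in UCP1 KO and 111, 119 and 129 CPM in dKO. It had 103, 98.0, 97.4, 93.6 and 93.2 CPM in FGF21 KO and 98.1, 88.2, 88.6, 94.4 and 80.3 CPM in WT. All UCP1 KO and dKO libraries lay above all WT libraries. The log2 fold change was 0.21 in UCP1 KO (SE 0.05, edgeR adjusted p = 0.000975), and 0.65 with total counts. Its partner Ndufaf3 had 14.1, 16.5 and 17.4 CPM in UCP1 KO and 14.8, 15.8 and 18.2 CPM in dKO. It had 24.2, 24.8, 25.2, 21.7 and 19.9 CPM in FGF21 KO and 22.6, 25.1, 25.6, 25.4 and 21.3 CPM in WT. The groups without UCP1 lay wholly below the other groups. The log2 fold change of Ndufaf3 in UCP1 KO was -0.56 (SE 0.07, edgeR adjusted p = 4.94e-07), and with total counts it was -0.13 and did not pass the test (adjusted p = 0.137). Partners in assembly thus had log2 fold changes of opposite sign with either scaling. An exon of Impdh2 on the opposite strand overlaps exons of Ndufaf3, so the values of Ndufaf3 are uncertain in each tissue.

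Ndufaf6, which acts early on the membrane arm in human cells, rose by 0.26 in UCP1 KO (SE 0.08, edgeR adjusted p = 0.00871; 0.69 with total counts), and its UCP1 KO and WT libraries overlapped. Ndufaf2, which binds a late intermediate, rose by 0.18 (SE 0.07, edgeR adjusted p = 0.0321; 0.61 with total counts), a call that was lost without any of 5 libraries (0.14 to 0.18 without UCP1 KO replicate 2, 4 or 6 or WT replicate 4 or 5) and without the libraries high in muscle fibre markers (0.15). Ndufaf5, which hydroxylates an arginine of the core subunit Ndufs7, changed by -0.33 (SE 0.05, edgeR adjusted p = 1.86e-06), but by 0.11 with total counts (adjusted p = 0.079). Ndufaf7, an arginine methyltransferase, changed by -0.37 (edgeR adjusted p = 0.000185) and by 0.06 with total counts. Ndufaf1, a chaperone of membrane arm intermediates, did not pass the test at -0.10, and with total counts it rose by 0.33.

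**Figure D3:**
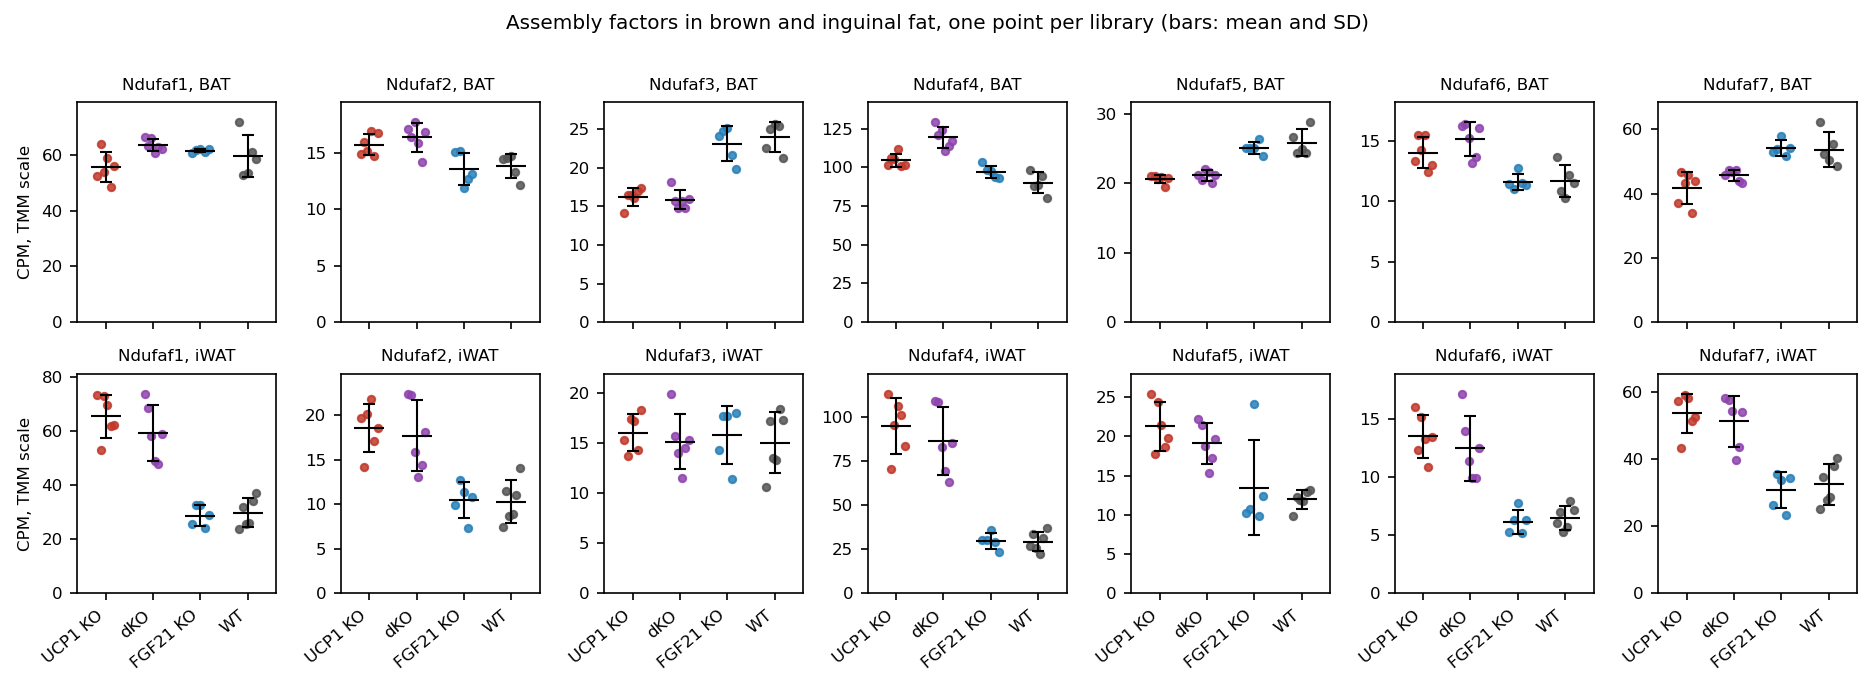
Level of each assembly factor in each BAT and iWAT library (CPM, TMM scale, linear axes from 0) with group means and SD. In BAT Ndufaf4 lies higher (104 and 119 against 88.6 CPM, medians) and Ndufaf3 lower (16.5 and 15.8 against 25.1 CPM) in UCP1 KO and dKO than in WT on this scale, while with total counts Ndufaf3 did not pass the test in UCP1 KO; in iWAT Ndufaf4 lies highest above WT and Ndufaf3 overlaps with it.

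A ratio between genes of 1 library does not depend on the scaling. In BAT the summed level of the 7 assembly factors per 100 CPM of the 36 subunits was 2.89 ± 0.0730 in UCP1 KO, 2.98 ± 0.0825 in dKO, 2.33 ± 0.0275 in FGF21 KO and 2.25 ± 0.0867 in WT (SD, n = 6, 6, 5 and 5). Every UCP1 KO library (2.82 to 3.02) and every dKO library (2.85 to 3.07) lay above every WT library (2.18 to 2.38). In iWAT the ratio was 2.74 ± 0.101 in UCP1 KO, 2.69 ± 0.160 in dKO, 2.94 ± 0.216 in FGF21 KO and 2.98 ± 0.227 in WT, with overlap between all groups. In muscle the group means lay between 2.43 and 2.50, and in hypothalamus between 6.28 and 6.37. Without Ndufaf4, left out after its values were seen, the BAT ratio was 1.77 in UCP1 KO (1.68 to 1.84) and 1.78 in dKO (1.71 to 1.85), against 1.53 in WT (1.46 to 1.63). In iWAT it was then 1.83 in UCP1 KO (1.74 to 1.95) and 1.81 in dKO (1.63 to 1.95), against 2.33 in WT (2.06 to 2.53). Leaving out Ndufaf4 thus kept the gap in BAT and opened one of the opposite sign in iWAT. These ratios are a description and were not tested.

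**Figure D4:**
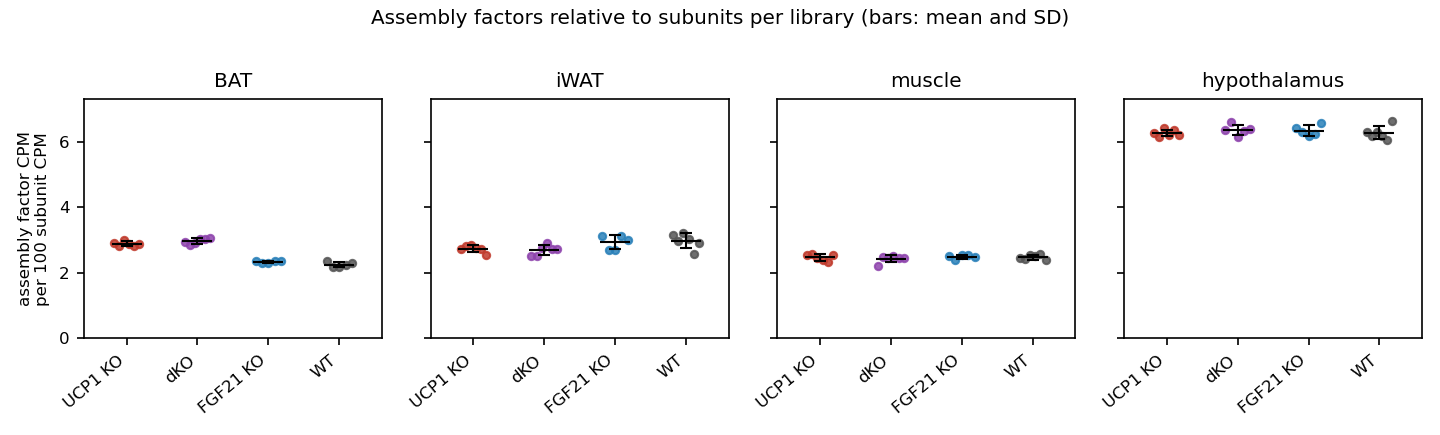
Summed CPM of the 7 assembly factors per 100 CPM of the 36 subunits in each library (ratio, linear axis from 0), by tissue and genotype, with group means and SD. In BAT the UCP1 KO and dKO libraries (means 2.89 and 2.98) lie above the WT libraries (2.25), and in the other tissues the genotypes overlap.

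Markers of other cell types moved with the genotype in BAT. The summed level of 12 macrophage markers was 767 to 1177 CPM in UCP1 KO, 521 to 784 CPM in dKO, 167 to 393 CPM in FGF21 KO and 168 to 223 CPM in WT, and 11 of the 12 were called higher in UCP1 KO (12 with total counts). The 13 lymphocyte markers summed to 18.5 to 26.6 CPM in UCP1 KO and 12.1 to 21.1 CPM in dKO, against 5.62 to 10.6 CPM in FGF21 KO and 5.94 to 12.8 CPM in WT. Of these 9 were called higher in UCP1 KO (median log2 fold change 1.68) and 8 in dKO (1.41), and the same numbers with total counts. The 6 endothelial markers were all called lower in UCP1 KO with TMM scaling but 0 with total counts, and summed to 706 to 832 CPM there, against 808 to 1049 CPM in WT. The sum of 10 brown adipocyte markers without Ucp1 was 4573 to 6299 CPM in UCP1 KO and 4095 to 5226 CPM in WT, with 5 called higher and 3 lower (6 and 1 with total counts). The 8 white adipocyte markers summed to 170 to 608 CPM in UCP1 KO and 281 to 720 CPM in dKO. They summed to 654 to 822 CPM in FGF21 KO and 590 to 907 CPM in WT. With total counts, where 70.5% of all genes were called in UCP1 KO, 0 of the 5 tested were called higher and 1 lower. The sum of 14 muscle fibre markers varied widely, from 90.4 to 8032 CPM in UCP1 KO and from 436 to 31753 CPM in WT, and without the 5 BAT libraries in which they were high 34 of the 45 genes were called, 32 of them lower. The part of the other cell types in the changes was not tested.

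In BAT the dKO libraries differed less from UCP1 KO than from WT. Against the same WT libraries 24 of the 45 genes fell and 3 rose with TMM scaling, whereas 7 fell and 23 rose with total counts; 59.1% of all genes were called with TMM scaling, 29.7% as higher and 29.3% as lower, and 66.4% with total counts. The log2 fold changes in dKO were -0.68 for Ndufv1, -0.75 for Ndufa1, -0.52 for Ndufa10, -0.43 for Ndufa4, -0.70 for Ndufa4l2 and -0.60 for Ndufaf3, and 0.41 for Ndufaf4, 0.37 for Ndufaf6 and 0.24 for Ndufaf2. With total counts they were -0.31 for Ndufv1, -0.38 for Ndufa1, -0.14 for Ndufa10, -0.33 for Ndufa4l2 and -0.23 for Ndufaf3, and 0.78 for Ndufaf4, 0.75 for Ndufaf6 and 0.61 for Ndufaf2, all of which passed the test. That of Ndufa4 was then -0.06 and did not pass it (edgeR adjusted p = 0.301). Compared directly, dKO differed from UCP1 KO in 1 of the 45 genes, against 1.73% of all genes. That gene was Ndufaf4, which was higher in dKO by 0.19 (SE 0.05, edgeR adjusted p = 0.0443), a size that stayed between 0.17 and 0.21 when a library was left out. The call was lost with total counts (0.13) and without any of 15 libraries: dKO replicates 1, 2, 3, 5 and 6, UCP1 KO replicates 1, 3, 5 and 6, FGF21 KO replicates 2, 3 and 5, and WT replicates 2, 3 and 4. The log2 fold change in dKO against UCP1 KO was above 0 for 38 of the 45 genes, where the median of all genes was -0.006. Genes of a library share its scaling and are not independent replicates, so this count is no test. The summed levels overlapped, at 10144 to 11551 CPM in dKO and 9425 to 11020 CPM in UCP1 KO. An unadjusted p under 0.05 was found for 14 of the 45, and the share of all genes with such a p was not counted.

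FGF21 loss alone gave no call among the 45 genes in BAT (edgeR; 0.025% of all genes were called), 2 had an unadjusted p under 0.05, and DESeq2 and limma also called 0. The smallest p was that of Ndufa7, an accessory subunit of the N module, with a log2 fold change of -0.16 (edgeR adjusted p = 0.494). The interaction, which asks whether the effect of UCP1 loss differs without FGF21, was called for 0 of the 45 and for 0% of all genes (edgeR; 2 with an unadjusted p under 0.05; 0 with DESeq2 and limma), the smallest p being that of Ndufb9 at 0.16 (adjusted p = 0.677).

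In iWAT the complex I genes rose in UCP1 KO. Of the 45 genes 42 were called higher and 0 lower (edgeR, adjusted p under 0.05), against 46.3% of all genes in either direction and 22.3% as higher. The median log2 fold change was 1.15, or 1.28 above the median of all genes (-0.13), and with total counts 40 were called higher and 2 lower, with a median 1.30 above that of all genes (-0.53); 65.4% of all genes were called in that fit. Their share of all raw counts was 0.987 ± 0.0809% in UCP1 KO, 0.965 ± 0.140% in dKO, 0.555 ± 0.0565% in FGF21 KO and 0.572 ± 0.0588% in WT (SD, n = 6, 6, 5 and 6). For 39 of the 45 genes every UCP1 KO library lay above every WT library, against 13.1% of all genes.

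Ndufaf4 rose most of the 45 genes in iWAT. It had 70.2, 98.2 and 113 CPM in UCP1 KO and 63.1, 84.0 and 109 CPM in dKO (lowest, median and highest). It had 30.4, 30.4, 35.7, 29.0 and 23.3 CPM in FGF21 KO and 22.0, 28.9 and 37.0 CPM in WT. The libraries without UCP1 all lay above those with it. The log2 fold change was 1.70 in UCP1 KO (SE 0.16, edgeR adjusted p = 6.68e-08), or 3.26-fold. The other assembly factors followed with 1.15 for Ndufaf1, 1.06 for Ndufaf6, 0.86 for Ndufaf2, 0.84 for Ndufaf5 and 0.74 for Ndufaf7, and all these were called.

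Ndufaf3 did not rise with them. It had 13.7, 16.2 and 18.3 CPM in UCP1 KO and 11.5, 14.9 and 19.9 CPM in dKO. It had 14.3, 17.7, 17.7, 11.4 and 18.0 CPM in FGF21 KO and 10.6, 15.3 and 18.4 CPM in WT, so all 4 groups overlapped. Its log2 fold change in UCP1 KO was 0.10 (edgeR adjusted p = 0.571), and with total counts it was called lower at -0.28 (adjusted p = 0.00903). The gene lies at chr9:108565537-108567434 on the minus strand (GRCm38), and an exon of Impdh2 on the opposite strand overlaps its exons. Whether the authors counted by strand is not given in the sources used here, so reads of the partner could be among its counts.

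All 7 core subunits and 28 of the 29 accessory subunits rose in iWAT of UCP1 KO, with median log2 fold changes of 1.29 and 1.15. Ndufv2, an iron-sulfur subunit of the N module, had 364, 470 and 567 CPM in UCP1 KO, 321, 419 and 596 CPM in dKO, and 140, 169 and 218 CPM in WT. It changed by 1.45 in UCP1 KO (SE 0.17, edgeR adjusted p = 1.36e-06). Ndufs1 had 554, 694 and 754 CPM in UCP1 KO, against 241, 282 and 373 CPM in WT, a log2 fold change of 1.20 (SE 0.14, edgeR adjusted p = 8.47e-07). Neither gene showed an overlap between the libraries without UCP1 and WT. Among the accessory subunits Ndufab1, the mitochondrial acyl carrier protein, changed most, with 232, 324 and 384 CPM in UCP1 KO against 74.1, 99.0 and 136 CPM in WT. Its log2 fold change was 1.62 (SE 0.19, edgeR adjusted p = 1.13e-06); part of its sequence is shared with pseudogenes (7.18% of its 100-base stretches), so its counts are less certain. Ndufa10 changed by 1.43 (SE 0.17). Ndufb3, a distal membrane arm subunit, was the subunit that did not pass the test (0.43, edgeR adjusted p = 0.0696).

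The medians by arm in iWAT were 1.15 for the N module, 1.32 for the Q module, 1.04 for the proximal and 1.08 for the distal membrane arm. In the Ndufa4 pair, Ndufa4 rose by 0.92 (SE 0.18), and Ndufa4l2 had a log2 fold change of -0.10 that did not pass the test (edgeR adjusted p = 0.732). With total counts Ndufa4l2 was called lower at -0.47 (adjusted p = 0.0329).

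In dKO iWAT 42 of the 45 genes rose against the same WT libraries and 0 fell (37% of all genes were called, 19% as higher), with a median log2 fold change of 1.05. The values were 1.56 for Ndufaf4, 1.52 for Ndufab1, 1.33 for both Ndufv2 and Ndufs8, 1.26 for Ndufa10, 1.05 for Ndufs1, 0.999 for Ndufaf1 and 0.84 for Ndufa4. Compared directly, dKO and UCP1 KO differed in 0 of the 45 genes (edgeR; 0.0358% of all genes; 0 with an unadjusted p under 0.05, and 0 with DESeq2 and limma). The log2 fold change in dKO against UCP1 KO lay below 0 for 40 of the 45 genes, where the median of all genes was 0.002. Genes of a library share its scaling and are not independent replicates, so this count is no test. The summed levels overlapped, at 7781 to 13963 CPM in dKO and 8684 to 12796 CPM in UCP1 KO. The smallest p was that of Ndufaf1 at -0.15 (SE 0.13, edgeR adjusted p = 0.995). FGF21 KO iWAT had 0 calls against WT (0.00597% of all genes), with 0 at an unadjusted p under 0.05, and the interaction had 0 calls (0% of all genes), with 0 at an unadjusted p under 0.05; DESeq2 and limma called 0 in both. The gene nearest to a call was Ndufa4l2 for FGF21 KO (0.35) and Ndufaf5 for the interaction (-0.33).

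Brown adipocyte markers moved with the complex I genes in iWAT. The 10 markers without Ucp1 summed to 3648 to 6367 CPM in UCP1 KO and 3049 to 6601 CPM in dKO, against 338 to 960 CPM in FGF21 KO and 370 to 1137 CPM in WT. With total counts 8 of the 9 tested were called higher in UCP1 KO and 1 lower. The 8 white adipocyte markers summed to 1346 to 2378 CPM in UCP1 KO and 1378 to 2195 CPM in dKO. They summed to 1422 to 4302 CPM in FGF21 KO and 1728 to 4837 CPM in WT. With total counts, where 65.4% of all genes were called in UCP1 KO, all 6 tested were called lower. The 12 macrophage markers summed to 482 to 831 CPM in UCP1 KO and 728 to 1296 CPM in WT. The lymphocyte markers ran from 13.4 to 778 CPM in UCP1 KO and from 9.98 to 1569 CPM in WT, and the muscle fibre markers from 42.9 to 10133 CPM and from 67.2 to 13574 CPM. Without the libraries high in lymphocyte markers 41 genes were called in UCP1 KO, and also 41 without those high in muscle fibre markers, a choice made after seeing the data. The former were WT replicates 1, 3 and 4, UCP1 KO replicate 2, dKO replicates 4 and 5, and FGF21 KO replicates 1 and 4. The latter were WT replicates 3 and 4, UCP1 KO replicate 2, and FGF21 KO replicates 3 and 5. Both choices thus left out more WT than UCP1 KO libraries. Whether more brown-like cells or more RNA in each such cell underlies the sums was not tested.

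The change under UCP1 loss differed between iWAT and BAT for 44 of the 45 genes in a fit of both depots (edgeR, adjusted p under 0.05; 52.6% of all genes were called, 27.7% as more positive in iWAT), all with a more positive change in iWAT. With total counts 33 were called, all in the same direction, and 74.8% of all genes. The median difference of the log2 fold changes, iWAT minus BAT, was 1.49, against -0.03 for all genes. The largest differences were those of Ndufa10 (2.14, SE 0.19, edgeR adjusted p = 7.83e-12) and Ndufv1 (2.13, SE 0.21, adjusted p = 1.08e-10). Ndufs1 differed by 1.97, and Ndufaf4 differed by 1.55, Ndufaf1 by 1.31, Ndufaf7 by 1.17 and Ndufaf3 by 0.73. With TMM scaling the exception among the 45 genes was Ndufa4l2, whose difference of 0.49 did not pass the test. With total counts the difference turned to -0.15 for Ndufaf3, -0.13 for Ndufaf2 and -0.02 for Ndufaf6, and none of these passed the test.

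The subunits changed in a different order in the depots. Across the 36 subunits Pearson's r between the log2 fold change in BAT and that in iWAT was 0.125 and Spearman's rho 0.078. Across the 7 assembly factors r was 0.768 and rho 0.821, with Ndufaf3 lowest and Ndufaf4 among the highest in both depots. These are correlations across genes, which are not independent replicates, and the genes of a library share its scaling and depth.

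**Figure D5:**
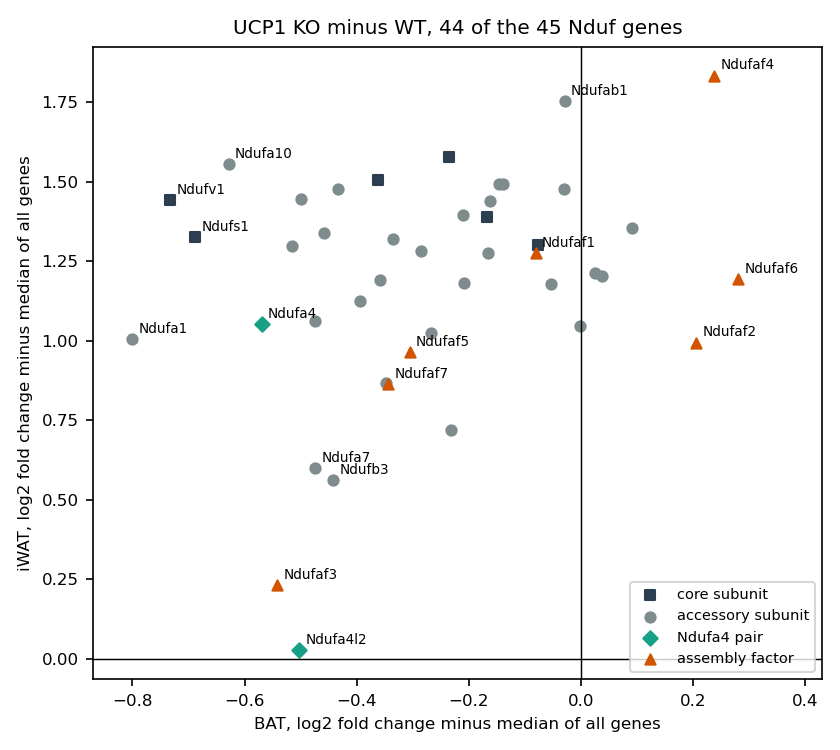
Log2 fold change in UCP1 KO against WT of 44 of the 45 Nduf genes in BAT (horizontal axis) and iWAT (vertical axis), each minus the median of all genes in that tissue (TMM scale), by class. Subunits spread over both axes in a different order (r = 0.125 over all 36), while Ndufaf3 lies low on both axes and Ndufaf4 high on both.

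Muscle showed small rises. In UCP1 KO 10 of the 45 genes rose and 0 fell (edgeR, adjusted p under 0.05), against 12.3% of all genes called in either direction and 5.89% as higher. Ndufaf3 had the largest change, with 7.91, 9.32 and 11.0 CPM in UCP1 KO and 8.27, 9.79 and 10.5 CPM in dKO, against 6.49, 7.64 and 8.94 CPM in WT. Its log2 fold change was 0.31 (SE 0.08, edgeR adjusted p = 0.0136), and its libraries overlapped with WT. Ndufa1 had 76.5, 78.9 and 82.0 CPM in UCP1 KO, against 65.3, 69.6 and 73.5 CPM in WT, and was 1 of 2 of the 45 genes without overlap (1.65% of all genes had every UCP1 KO library above every WT library); its log2 fold change was 0.19 (SE 0.04, edgeR adjusted p = 0.00199). Others named by rank were Ndufaf1 (0.26, adjusted p = 0.00365), Ndufb5 (0.21), Ndufc1 (0.18) and Ndufs1 (0.15, adjusted p = 0.0438), with edgeR throughout, and the call of Ndufs1 was lost without any of 12 libraries (0.12 to 0.15 without UCP1 KO replicate 1, 2, 3 or 6, dKO replicate 3 or 6, FGF21 KO replicate 3 or 5, or WT replicate 2, 3, 5 or 6).

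In dKO muscle 7 genes rose against the same WT libraries (10.3% of all genes were called, 4.85% as higher), among them Ndufaf3 (0.34), Ndufc1 (0.18), Ndufaf1 (0.18), Ndufs8 (0.16) and Ndufa10 (0.13). That number fell to 2 without WT replicate 3, and to 3 without WT replicate 2, without dKO replicate 2 and without dKO replicate 6. With those libraries left out the log2 fold changes of Ndufa10 and Ndufs8 stayed between 0.11 and 0.15. The call of Ndufaf1 was lost without any of 13 of the 23 libraries of the tissue (0.15 to 0.18). In UCP1 KO and in dKO alike, Ndufaf3 was called lower in BAT, not called in iWAT and called higher in muscle; with total counts it was called lower in BAT of dKO (-0.23) but not of UCP1 KO, and lower in iWAT of both (-0.28 in UCP1 KO and -0.30 in dKO). FGF21 KO muscle, dKO against UCP1 KO and the interaction gave 0 calls each with edgeR, DESeq2 and limma, with 0 genes at an unadjusted p under 0.05 in each; of all genes 0.0198%, 0% and 0% were called. The genes with the smallest p were Ndufa10 (-0.06), Ndufb5 (-0.09, adjusted p = 0.845) and Ndufb7 (0.16).

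Marker lists of several cell types moved in muscle too. The 12 macrophage markers summed to 83.3 to 152 CPM in UCP1 KO and 108 to 141 CPM in dKO, against 57.2 to 116 CPM in WT. Of these 3 were called higher in UCP1 KO (median log2 fold change 0.47) and 6 in dKO (0.50), or 1 and 4 with total counts. Of the 14 muscle fibre markers, which are the tissue's own, 2 were called higher and 4 lower in UCP1 KO (median -0.12), and 0 and 3 in dKO (median -0.11). The brown adipocyte markers without Ucp1 summed to 507 to 637 CPM in UCP1 KO and 520 to 560 CPM in dKO, against 477 to 518 CPM in WT, with 1 and 2 of the 9 tested called higher. Ucp1 itself had only 0.416 to 11.0 CPM in the muscle libraries, and which cells gave these sums was not tested. The part of these cell types in the changes of the Nduf genes was not tested.

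In hypothalamus no Nduf gene was called in any comparison by edgeR, DESeq2 or limma. Of all genes 0.0555% were called in UCP1 KO, 0.0555% in dKO and 0.00555% in FGF21 KO against WT, 0.0111% in dKO against UCP1 KO and 0% in the interaction, and the numbers of Nduf genes with an unadjusted p under 0.05 were 1, 3, 0, 1 and 1. The summed level was 2913 CPM in UCP1 KO, 2833 CPM in dKO, 2864 CPM in FGF21 KO and 2859 CPM in WT on average. The genes with the smallest p were Ndufa12 in UCP1 KO (-0.09, edgeR adjusted p = 0.882), Ndufa6 in dKO (-0.10), Ndufc1 in FGF21 KO (-0.07), Ndufb6 in dKO against UCP1 KO (-0.08) and Ndufa5 in the interaction (-0.11).

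The other respiratory complexes were counted from a list of 40 subunits of complexes II to V. In BAT of UCP1 KO 35 of 40 fell and 0 rose with TMM scaling (median log2 fold change -0.37), whereas with total counts 12 fell and 13 rose. Of all genes 29.9% were called lower there with TMM scaling, and 70.5% were called in either direction with total counts. Sdha of complex II changed by -0.71 (-0.28 with total counts) and Atp5a1 of the ATP synthase by -0.58 (-0.15). In iWAT 37 rose and 2 fell (median 1.18), with Uqcrc2 and Uqcrfs1 of complex III at 1.63 and 1.76 and the ATP synthase genes Atp5g1 and Atp5j lower at -1.02 and -0.44. In muscle 12 rose, among them Uqcrc2 (0.21) and Cox6b1 of complex IV (0.20), and Atp5g2 fell (-0.16). The shares of all genes called higher were 22.3% in iWAT and 5.89% in muscle. The median of this list and that of the complex I genes lay on the same side of the median of all genes in BAT and in iWAT, and the difference between them was not tested.

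Of 9 complex I assembly factors with other names that were measured, 6 fell and 0 rose in BAT of UCP1 KO with TMM scaling, whereas 1 fell and 4 rose with total counts. Nubpl, which delivers iron-sulfur clusters to complex I, changed by -0.66 (-0.23 with total counts) and Tmem186 by -0.44 (-0.01 with total counts). In iWAT 8 rose, with Tmem186 at 0.92 and Foxred1 at 0.99, and in muscle Ecsit fell (-0.12). Among 10 regulators of nuclear-encoded mitochondrial genes in BAT of UCP1 KO, 6 rose, among them Nrf1 (0.57) and Esrrb (1.11), and 2 fell, Ppargc1b (-0.81) and Yy1 (-0.20), with TMM scaling, whereas 8 rose, Yy1 among them, and 0 fell with total counts. In iWAT 7 rose, among them Gabpa (1.19) and Esrrb (3.54), and Yy1 (-0.29) and Nrf1 (-0.28) fell. In muscle Esrrg rose (0.50). The shares of all genes called in UCP1 KO were 60.1% in BAT (70.5% with total counts), 46.3% in iWAT and 12.3% in muscle. The 6 of 9 assembly factors called in BAT with TMM scaling lie near the share called in either direction. All 6 fell, however, and 29.9% of all genes were called lower there, in a list of only 9 genes. In iWAT 22.3% of all genes were called higher.

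Ndufb7 lies 0.268 Mb from Ucp1 on chromosome 8, near enough to be inherited together with the targeted allele. In UCP1 KO its log2 fold change was -0.08 in BAT (adjusted p = 0.51), 1.05 in iWAT, 0.14 in muscle (adjusted p = 0.209) and 0.08 in hypothalamus (adjusted p = 0.899), all with edgeR. Ndufb4, Ndufa13 and Ndufb6 share 33.4%, 24% and 24% of their 100-base stretches with other genes or pseudogenes, so their counts are less certain. Exons of a gene on the opposite strand also overlap those of Ndufa2, Ndufa3, Ndufa9, Ndufa11, Ndufa13, Ndufab1, Ndufb2, Ndufb5, Ndufb6, Ndufb11, Ndufs1, Ndufs3, Ndufs6 and Ndufaf2, and exons of a gene on the same strand overlap those of Ndufb2, Ndufb8 and Ndufb9. The counts of these genes may hold reads of a partner.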

How the data were processed

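The 90 libraries were stranded, made from poly(A) RNA and read as pairs, per the labels' protocols. The authors deposited unnormalized counts for each gene, made with STAR and HTSeq on the mm10 build per the submitters' processing notes. Tool versions and the strand setting of the counting are not given. Of 32765 entries per library, 66 names that occurred again after trimming were summed, which left 32697 genes; 2 entries that name no gene held at most 0.22% of the counts and were left out. The range of total counts per library, in units of 1000000, was 34.82 to 57.29 for BAT, 36.44 to 54.08 for iWAT, 18.07 to 60.97 for muscle, and for hypothalamus 35.5 to 69.89.

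In each tissue all 4 genotypes were fitted together with edgeR 4.0.16 (R 4.3.3): TMM factors, filterByExpr, robust quasi-likelihood dispersions and the F test. This left 16032, 16751, 15120 and 18020 genes, with biological coefficients of variation of 0.257, 0.388, 0.101 and 0.093 in that order of tissues. BAT and iWAT were also fitted jointly (17186 genes) for the difference between depots. Calls needed an adjusted p (Benjamini-Hochberg over all genes tested) under 0.05. SEs of log2 fold changes were taken from the F statistic (size over root F). CPM use TMM library sizes.

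The Nduf genes, the other lists and the markers were chosen with earlier results of these data known. Genes were named by rank: in each class and direction the 2 with the smallest p and the one with the largest change among those called, those called against the median, and the smallest p where none was called; 1 gene that the rule names is not reported here, and stays in the counts, medians and sums. The fits were tested on simulated data with known changes in a small set of genes, as many up as down. Those data lack the shift in library make-up seen in BAT, so they are no check of the scaling there. Alternatives were DESeq2 1.42.0, limma 3.58.1 on voom-weighted values, RLE size factors, no low-count filter, the compared groups alone, each library left out, a covariate or left-out libraries for genes of other tissues (muscle fibre in BAT, lymphocyte in iWAT, choroid plexus in hypothalamus), no minimum of 1 CPM and, chosen after seeing the data, total count scaling and iWAT without libraries high in muscle fibre markers. Promoters and coordinates come from RefSeq and GENCODE tables of GRCm38, the assembly also called mm10. Figures were drawn with matplotlib 3.10.9.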

Additional observations from a re-analysis of the deposited data

Results flagged for a closer look

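The difference in the effect of UCP1 loss between iWAT and BAT was called for 44 of the 45 Nduf genes. The difference of the log2 fold changes (iWAT minus BAT) was 2.14 for Ndufa10, 1.58 for Ndufa4, 1.87 for Ndufa9, 1.31 for Ndufaf1, 1.55 for Ndufaf4, 1.17 for Ndufaf7, 1.75 for Ndufb5, 1.97 for Ndufs1 and 2.13 for Ndufv1, with edgeR adjusted p at or below 8.53e-08.

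In 9 of 204 groups of 5 or 6 libraries checked, a library stood far from the others of its group; chance gives about 1 in 20. UCP1 KO replicate 2 was the lowest of its group in iWAT for Ndufv1 (522 CPM, the others 695 to 740), Ndufa10 (472 CPM) and the sum of the core subunits (2788 CPM); it is also among the iWAT libraries high in lymphocyte and muscle fibre markers. In iWAT, FGF21 KO replicate 3 was the highest for Ndufaf5 (24.1 CPM, the others 9.86 to 12.4), and its muscle fibre markers summed to 73161 CPM. In BAT, dKO replicate 1 was the highest for Ndufaf3 (18.2 CPM), FGF21 KO replicate 3 the highest for Ndufaf6 (12.7 CPM) and UCP1 KO replicate 5 the lowest for Ndufaf5 (19.4 CPM). In muscle, WT replicate 4 was the highest for Ndufaf1 (34.9 CPM) and FGF21 KO replicate 1 the highest for the sum of the assembly factors (153 CPM). The part of other tissue in these values was not tested.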

How the results depend on the processing

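Of 2286 alternative values of the 69 named gene changes, 2218 kept the call or its absence. Direction was compared only where a fit called the gene. Of the rest, 66 kept the direction but lost the call, and 2 turned: with total count scaling Ndufaf5 in BAT was 0.11 in UCP1 KO and 0.081 in dKO. The named genes were picked by rank, and unnamed calls turned too. In BAT of UCP1 KO the log2 fold change of Ndufs3 ran from -0.22 to 0.24 over the alternatives. Calls that held in every alternative numbered 40 of 42 for UCP1 KO and 40 of 42 for dKO in iWAT, 8 of 35 and 9 of 27 in BAT, 7 of 10 and 2 of 7 in muscle, and 33 of 44 for the difference between depots. In BAT, dKO against UCP1 KO, 1 gene called became 5 with DESeq2, 2 with RLE, limma or the muscle covariate, and 0 without the low-count filter, with the compared groups alone, without the libraries high in muscle fibre markers or with total counts, and 0 to 4 with a library left out; every library moved it except FGF21 KO replicates 1 and 4. The causes were not tested. In muscle, dKO against WT, 7 became 3 without the filter, 12 with total counts and 2 to 10 with a library left out. Leaving out a library gave 33 to 35 genes for UCP1 KO and 26 to 30 for dKO in BAT, 41 to 43 and 40 to 42 in iWAT, 7 to 12 for UCP1 KO in muscle, and 44 to 45 for the difference between depots, and 0 to 0 for every comparison with 0 calls. No paired analysis was possible because the labels carry no replicate numbers, and those used here follow the order of the deposit.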
